A study of Homo sapiens with 5 samples.

Results

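The regions described here carried acetylated histone H3 (H3K27ac) in both RD and RH18 and had no MYF5 summit inside them or within 500 bp. RD and RH18 are established lines grown from human rhabdomyosarcomas of the fusion-negative kind, tumours that resemble developing skeletal muscle. Members were the RH18 H3K27ac regions that overlapped an RD H3K27ac region by at least 1 bp and met that MYF5 rule. They numbered 14638 of the 46408 RH18 regions (31.5%, 95% interval 31.1 to 32.0%) and covered 11.7 of 32.5 Mb. Of the 20907 RH18 regions shared with RD, they were 70.0% (69.4 to 70.6%). The other 6269 shared regions had a MYF5 summit, 22996 regions were found in RH18 without an RD counterpart and without MYF5, and 2505 were RH18-only with MYF5. Members were thus chosen by overlap with RD regions and by the positions of MYF5 summits, and values that follow from either are given as descriptions without a test.

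The 5 samples of the ChIP-seq series were an H3K27ac library of each line, a MYF5 library of RH18 alone and an input library of each line. Both lines were grown in DMEM with serum, fixed in 1% formaldehyde for 12 minutes and sonicated. The labels give no genetic change or treatment beyond this. The 3 immunoprecipitated libraries each had 1 peak list, every group was 1 library, and the input samples were not used. Variation between replicates could therefore not be estimated, and intervals are exact Clopper-Pearson 95% intervals of counting error only. Each list describes a bulk culture, in which acetylation in fewer cells and weaker acetylation in all cells cannot be told apart.

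Acetylation of lysine 27 on histone H3 is placed by the acetyltransferases p300 and CBP and marks nucleosomes beside active promoters and enhancers. MYF5 is a basic helix-loop-helix factor of muscle progenitors. It pairs with E proteins, binds the E-box, and acts early in the commitment of cells to the muscle lineage. Acetylated regions common to cell lines of a lineage generally include promoters of genes that most cells use, as well as enhancers bound by other factors. Which of these the members were was not analysed here, because gene positions of the build in use, hg19, were not used. The muscle markers of the lines were not checked for the same reason, and regions are named by position.

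Members were lower than shared regions with MYF5 and higher than both RH18-only classes in the RH18 list. Height is given as tags, the number of sequenced fragments piled up at a summit, which was recovered from the deposited values. A member had a median of 80 tags (quartiles 46 and 134, range 16 to 383). Shared regions with MYF5 had a median of 141 tags, RH18-only regions with MYF5 had 63, and RH18-only regions without MYF5 had 41. The same order held for width, with medians of 616 bp in members and 924, 492 and 369 bp in those classes. Median fold enrichment, as the authors deposited it, was 19.3 in members and 33.8, 14.8 and 10.2 in the others. The distributions overlapped widely. At least 25% of members had 134 tags or more, close to the median of the shared regions with MYF5.

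Members were among the tallest RH18 regions slightly more often than RH18 regions in general and much less often than shared regions with MYF5. Among the 10% of RH18 regions with most tags, from 178 tags up, were 1781 members, or 12.2% of members (11.6 to 12.7%), against 10.1% of all RH18 regions. The same limit was passed by 36.8% of shared regions with MYF5 (35.6 to 38.0%), 9.90% of RH18-only regions with MYF5 and 1.54% of RH18-only regions without MYF5. A width of 1000 bp or more was reached by 25.7% of members and 19.2% of all RH18 regions. A width of 3000 bp or more was reached by 145 members, or 0.991% (0.837 to 1.16%), against 1.3% of all regions. The share was 5.44% (4.89 to 6.03%) in shared regions with MYF5 and 2.32% in RH18-only regions with MYF5. In RH18-only regions without MYF5 it was lower than in members, 0.252% (0.192 to 0.326%).

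The share of shared regions that lacked MYF5 was lower among taller ones. It was 85.0% (83.4 to 86.5%) in the lowest decile by tags and 77.1% in decile 5. It was 53.8% in decile 9 and 34.1% (32.0 to 36.1%) in the highest decile, from 221 tags up. In that highest decile 712 of 2091 regions had no MYF5 summit. By width, the share ran from 82.2% in the narrowest decile to 45.5% in the widest, from 1758 bp up. Ranked by the tags of the RD counterpart, it ran from 79.5% to 48.2%. MYF5 was not mapped in RD here, but the rule also used the RD list. RD tags also rose with RH18 tags (Spearman's rho 0.47 in members and 0.52 in shared regions with MYF5), so this is not separate support. A wide region has more room for a summit by its size alone, and that part was not separated.

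**Figure D1:**
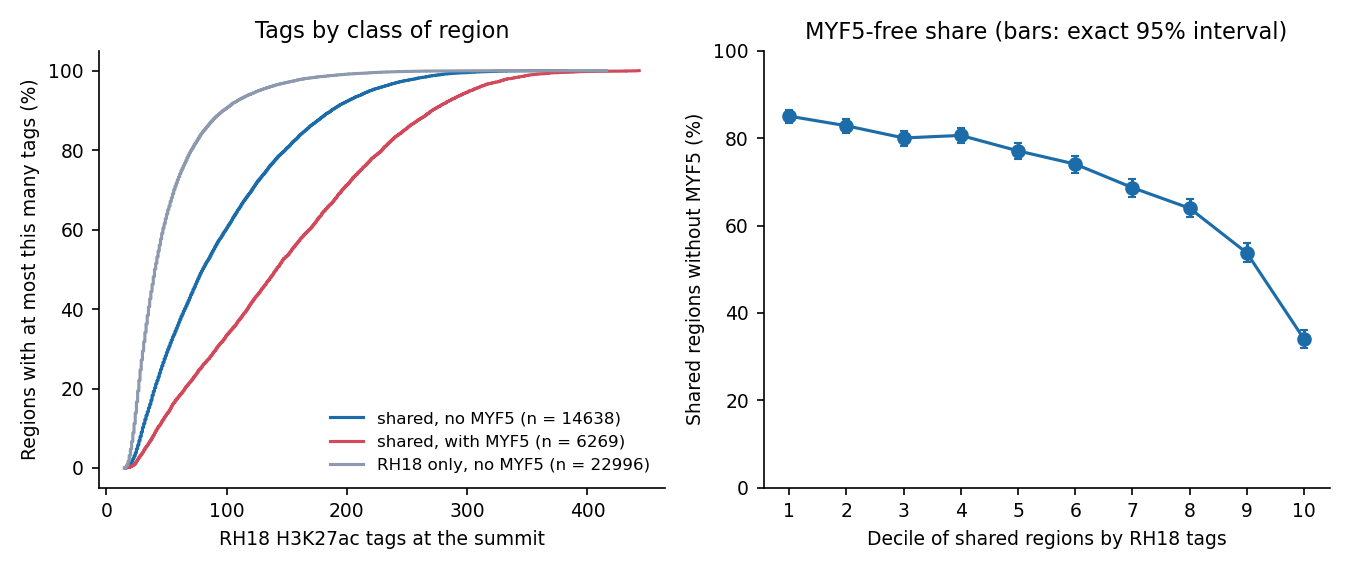
Left, the cumulative share of regions (%) against RH18 H3K27ac tags at the summit for 3 classes of region: members (blue), shared regions with MYF5 (red) and RH18-only regions without MYF5 (grey), with medians of 80, 141 and 41 tags. Right, the percentage of shared regions without MYF5 in each decile of shared regions by RH18 tags, with exact 95% intervals, which goes from 85.0% to 34.1%.

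The member of highest fold lay on chromosome 9 (131902421 to 131910180). It was 7760 bp wide with a fold of 126 and 350 tags in RH18. Its strongest RD counterpart had 313 tags, more than nearly every other RD region (percentile 99.995), and the nearest MYF5 summit was 30323 bp away. This region was among the strongest of both lines and was also number 4 by width. The next by fold, on chromosome 5 (172159033 to 172161289), had a fold of 118 and 328 tags in RH18. Its RD counterpart had 92 tags, at percentile 55.1 of the RD list. Next came a member on chromosome 11 (58345083 to 58346491) that had 319 tags in RH18 and 254 in RD, and a MYF5 summit lay only 826 bp from it.

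The 10 members of highest fold, from 103 to 126, lay on 8 chromosomes, rested on 287 to 353 RH18 tags, and did not share one pattern in RD. In 5 of them the RD counterpart was among the top 10% of RD regions, and in the others RD tags went down to 49 (percentile 18.9). The lowest was opposite a region on chromosome 15 (67094300 to 67096188), with 291 tags in RH18, where RD regions covered 20.9% of the width. On chromosome 10 (95197249 to 95199132) both lines were high, with 353 tags in RH18 and 242 in RD and summits 10 bp apart. On chromosome 2 (217276887 to 217277819) the summits were 1 bp apart, with 307 tags in RH18 and 278 in RD.

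The 10 widest members ranged from 6274 to 12612 bp and were covered by RD regions in part only. The widest was on chromosome 8 (145008147 to 145020758), with 327 RH18 tags, a MYF5 summit 4860 bp away, and RD regions over 9.31% of its width. Its local background was raised, at 4.55 times the lowest of the RH18 list, and its RD counterpart had a fold of 3.81. A member of 8409 bp on chromosome 9 (127054263 to 127062671) was covered to 6.37%. One of 8320 bp on chromosome 21 (46780929 to 46789248) had 383 tags, the most of any member. The member on chromosome 17 (2298855 to 2305454) was one RH18 region of 6600 bp but 7 separate regions in RD. Across these 10 widest members coverage by RD regions stayed between 6.37% and 52.1%, below the median of all members, 75.4%. Coverage was lower in wide regions in general. From the narrowest to the widest decile of shared regions, its median went from 92.5% to 58.4% in members. In shared regions with MYF5 it went from 89.6% to 65.9%.

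Acetylation of the members in RD was compared next. Each member was matched with the overlapping RD region of most tags. A region that overlaps several RD regions thus has more chances of a tall counterpart, and that part was not separated. These counterparts had a median of 107 tags (quartiles 72 and 149) and a width of 455 bp. A tag is worth a different amount in each list, so tags are ranked within a line and not compared between lines. The median member stood at percentile 64.3 of its own list and its counterpart at percentile 63.7 of the RD list. RD counterparts were in the top 10% of the RD list for 13.8% of members (13.2 to 14.3%), against 18.7% of all shared regions and 30.4% (29.2 to 31.5%) of shared regions with MYF5. Both lists placed the pair in their top 10% for 815 members (5.57%), against 9.9% of all shared regions.

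Tags of the lines were related across members, with wide scatter. Across the 14638 members Pearson's r was 0.49 and Spearman's rho 0.47; across the shared regions with MYF5 they were 0.53 and 0.52. These points are regions within single libraries, share each library's depth, and are not independent replicates. From the lowest to the highest quintile of shared regions by RH18 tags, median RD tags of members were 76, 89, 109, 135 and 171. Those of shared regions with MYF5 in the same quintiles were 84, 96, 112, 144 and 183.5. Regions with MYF5 were thus higher in RD at the median in every quintile, by little beside the spread of members, whose quartiles were 53 and 110 tags in the lowest quintile. In the highest quintile the regions with MYF5 also had more RH18 tags, 233 against 210.5. Without matching on RH18 height the gap was wider, 140 against 107 tags in RD. More than 1 RD region overlapped 32.0% of shared regions with MYF5 against 18.7% of members. Taking the tallest of more RD regions can raise the RD value, and its part in these gaps was not tested.

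**Figure D2:**
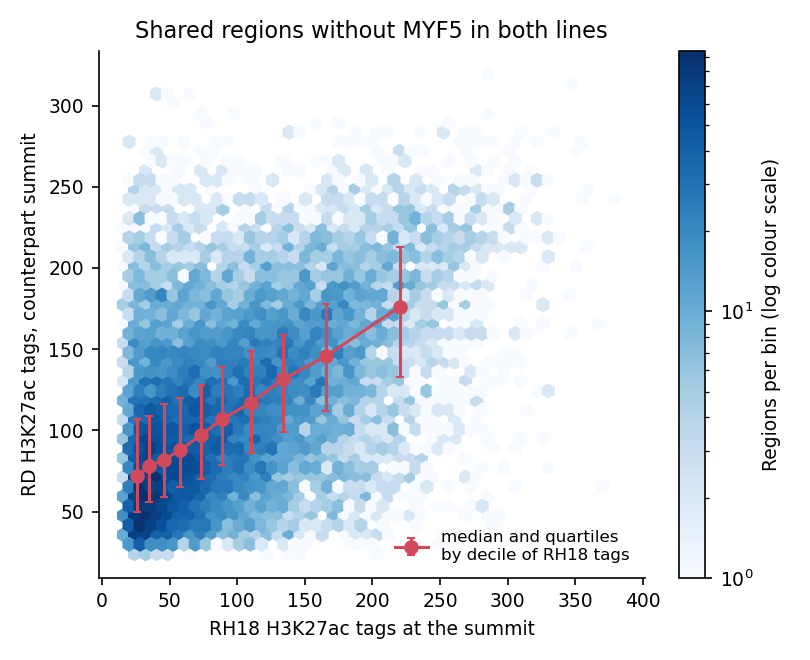
Members by RH18 H3K27ac tags at the summit (x axis) and tags of the RD counterpart (y axis), with the number of regions per hexagon on a log colour scale. Red points and bars are the median and quartiles of RD tags in each decile of members by RH18 tags; RD tags rise with RH18 tags while the quartiles of neighbouring deciles overlap.

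Summits of the lines lay close together in most members. The median distance between the RH18 summit and that of the RD counterpart was 46 bp, and 47 bp in shared regions with MYF5. Summits were within 150 bp of each other in 77.2% of members (76.5 to 77.9%), 76.5% of all shared regions and 74.99% (73.9 to 76.1%) of those with MYF5. The RD summit fell inside the member for 91.5%, against 92.1% of all shared regions, and the RH18 summit inside the RD counterpart for 89.4%, against 89.2%. The distance shortened with height, from a median of 66 bp in the lowest quintile by tags to 33 bp in the highest.

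The extent of the regions was compared next. RD regions covered all of a member in 14.0% of cases, against 13.7% of all shared regions, and under 20% of it in 2.92%, against 3.05%. A single RD region matched 11897 members (81.3%), 2 regions matched 2282 and 3 or more matched 459. More than 1 RD region was found in 18.7% of members (18.1 to 19.4%), 22.7% of all shared regions and 32.0% (30.9 to 33.2%) of those with MYF5, which were wider. Conversely, 457 of the 17435 RD regions behind the members spanned 2 or more of them. Width agreed loosely between the lines, with a Spearman's rho of 0.25 across members. Within the RH18 list rho between width and tags was 0.69.

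Some members ranked high in one list while their counterparts ranked low in the other, or the reverse. Of the 1781 members in the RH18 top 10%, 50 had a counterpart in the lowest 25% of the RD list, at 55 tags or fewer. That was 2.81% (2.09 to 3.68%), against 2.96% of all shared regions in the RH18 top 10% and 3.08% (2.41 to 3.87%) of those with MYF5, so the intervals overlapped. An example on chromosome 17 (36619435 to 36622636) had 287 tags in RH18 and 42 in RD. Another on chromosome 3 (134077064 to 134079460) had 285 and 50. In the opposite direction, 124 of the 2013 members with a counterpart in the RD top 10% were in the lowest 25% of the RH18 list, at 34 tags or fewer. That was 6.16% (5.15 to 7.30%), against 3.93% of all shared regions with such a counterpart and 1.58% (1.07 to 2.24%) of those with MYF5, which were taller in RH18 in general. The most extreme lay on chromosome 7 (47495246 to 47495522), a region of 277 bp with 24 RH18 tags wholly inside an RD region with 278. In that case the summits were 2591 bp apart, so the RH18 region met a flank of the RD region and not its top. A member on chromosome 9 (98274251 to 98274686) had 33 and 273 tags with summits 834 bp apart. At 436 bp wide, it too did not hold the RD summit. These examples were chosen after their values were seen. How many of the 124 had the RD summit outside them was not counted.

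Other members were high in both lines. After the chromosome 9 region already described, examples chosen after their values were seen lay on chromosome 20 (48531215 to 48532836; 358 tags in RH18 and 279 in RD) and chromosome 22 (29662968 to 29665520; 351 and 273). On chromosome 7 (2594160 to 2596156) the tags were 334 and 282 and the summits 10 bp apart. The nearest MYF5 summits were 20181, 41168 and 22033 bp away. Another on chromosome 20 (45987171 to 45988256), with 318 and 279 tags, had a MYF5 summit only 649 bp away.

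Distance to MYF5 varied from the limit to several megabases. The median member lay 44214.5 bp from the nearest MYF5 summit, with quartiles of 11068.75 and 130270.5 bp. The nearest summit lay at over 500 and up to 1000 bp for 681 members (4.65%, 4.32 to 5.01%). The same held for 4.30% (4.04 to 4.57%) of RH18-only regions without MYF5. It held for 3.6% of all RH18 regions, a base that includes regions with a summit within 500 bp, which cannot count here. More than 100 kb from any summit lay 4501 members (30.7%, 30.0 to 31.5%), against 21.6% of all RH18 regions, which include those with MYF5. For RH18-only regions without MYF5 it was 23.9% (23.4 to 24.5%). Members close to MYF5 were a little lower and narrower: those at 1001 to 2500 bp had a median of 65 tags and 505.5 bp, those at 50001 to 100000 bp 88 tags and 643 bp, and those beyond 100 kb 79 tags and 614 bp. The median distance of RH18-only regions without MYF5 was shorter, 29156.5 bp.

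Values just inside and just outside the limit of 500 bp were close. The nearest members were 501 bp from a summit, on chromosome 2 (157256847 to 157257178, 29 tags) and chromosome 20 (10652182 to 10654060, 75 tags). Just inside the limit, at 500 bp, were regions on chromosome 12 (109232888 to 109235479, 234 tags), chromosome 6 (27759621 to 27759984, 43 tags) and chromosome 8 (17519822 to 17520106, 66 tags). The 197 members at 501 to 600 bp had a median of 78 tags and a width of 492 bp. The 238 shared regions with a summit at 401 to 500 bp had 85 tags and 463.5 bp. Shared regions with a summit inside them stood higher, at 169 tags and 1153 bp.

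**Figure D3:**
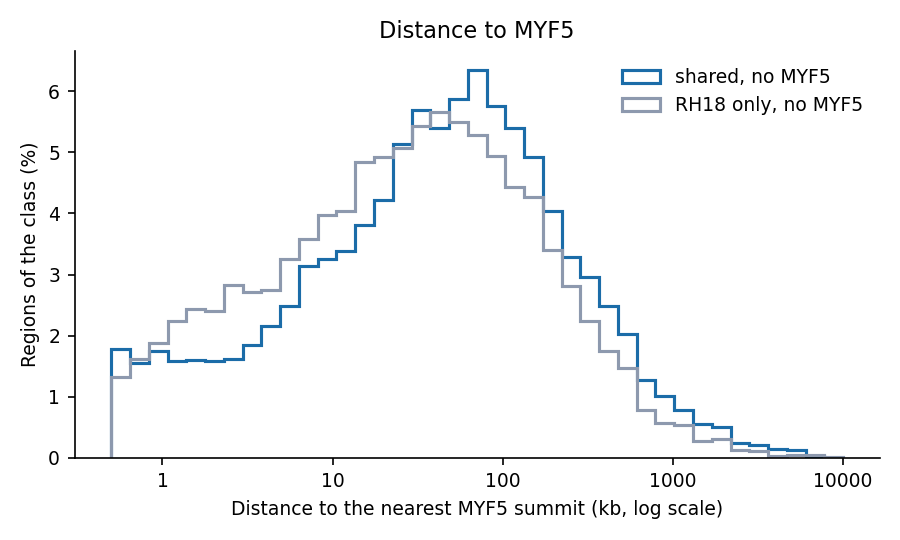
The percentage of regions of a class (y axis) by distance to the nearest MYF5 summit in kb (x axis, log scale), for members (blue) and RH18-only regions without MYF5 (grey). Both have broad single humps, with medians of 44214.5 and 29156.5 bp.

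Strong members far from MYF5 were looked up by distance after the values were seen. On chromosome 6 (64345702 to 64346697) a member with 181 RH18 tags and 134 RD tags lay 5948425 bp from the nearest summit, with summits of the lines 9 bp apart. On chromosome 8 (87520293 to 87521176) one with 242 and 140 tags lay 3248645 bp away. Another, on chromosome 9 (66457314 to 66458620), had 237 and 220 tags but a fold of only 8.26 in RH18, since its local background was 17.4 times the lowest of the RH18 list. The RD counterpart had a fold of only 1.85, and RD regions covered 19.2% of the member.

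Close neighbours were nearly as common around all RH18 regions as around members. Another RH18 region lay within 500 bp of 7324 members (50.03%, 49.2 to 50.8%), against 47.3% of all RH18 regions. The share was 50.6% (49.3 to 51.8%) in shared regions with MYF5 and 44.1% (43.4 to 44.7%) in RH18-only regions without MYF5. At the other end, 3346 members (22.9%, 22.2 to 23.5%) had no other RH18 region within 0.0125 Mb, against 19.6% of all regions. The members and the shared regions with MYF5 had overlapping intervals on both counts.

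When RH18 regions were joined at the distance customary for stitching enhancers (0.0125 Mb), members fell into 8997 domains. Of these, 7106 (79.0%) had no MYF5 summit in their span or within 500 bp, against 69.9% of all 18842 domains. The base of all domains includes those made only of regions with MYF5. MYF5-free domains held 10323 members (70.5%, 69.8 to 71.3%), against 61.5% (60.9 to 62.1%) of RH18-only regions without MYF5. They held 52.7% of all RH18 regions, a base lowered by construction, since regions with MYF5 cannot lie in them. The other 4315 members (29.5%) sat in a domain in which MYF5 was bound elsewhere. Domains with a member and MYF5 were longer, with a median span of 13642 bp against 1343 bp. Length alone gives a domain more chance to hold a summit, and this was not separated.

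Of the 7106 MYF5-free domains with a member, 88 held runs of 5 or more members. Runs of the other classes of region were not counted. The longest by count spanned 45.9 kb of chromosome 1 (157962341 to 158008216). It held 14 members and 4 RH18-only regions, with 15 RD regions over the same stretch. Its highest region, at 305 tags, was also number 5 by fold. The nearest MYF5 summit lay 60370 bp from the run and 86773 bp from that region. A run of 24.1 kb on chromosome 5 (14440213 to 14464271) consisted of 10 members and no other RH18 region, with 15 RD regions and a highest value of 167 tags. Here every RH18 region was matched in RD, and the nearest MYF5 summit was 297047 bp away.

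The remaining runs by this count held 9 members each. On chromosome 3 (11585429 to 11653424) the run spanned 68.0 kb with 9 RH18-only regions among the members and 12 RD regions. On chromosome 9 there were runs of 48.2 kb (132935177 to 132983345) and 37.7 kb (133698846 to 133736524), with 2 and 4 RH18-only regions. Their nearest MYF5 summits were 348315, 314053 and 133041 bp away. Of the 5 runs, 2 were thus on chromosome 9, and the highest region in them had 93 and 177 tags.

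**Figure D4:**
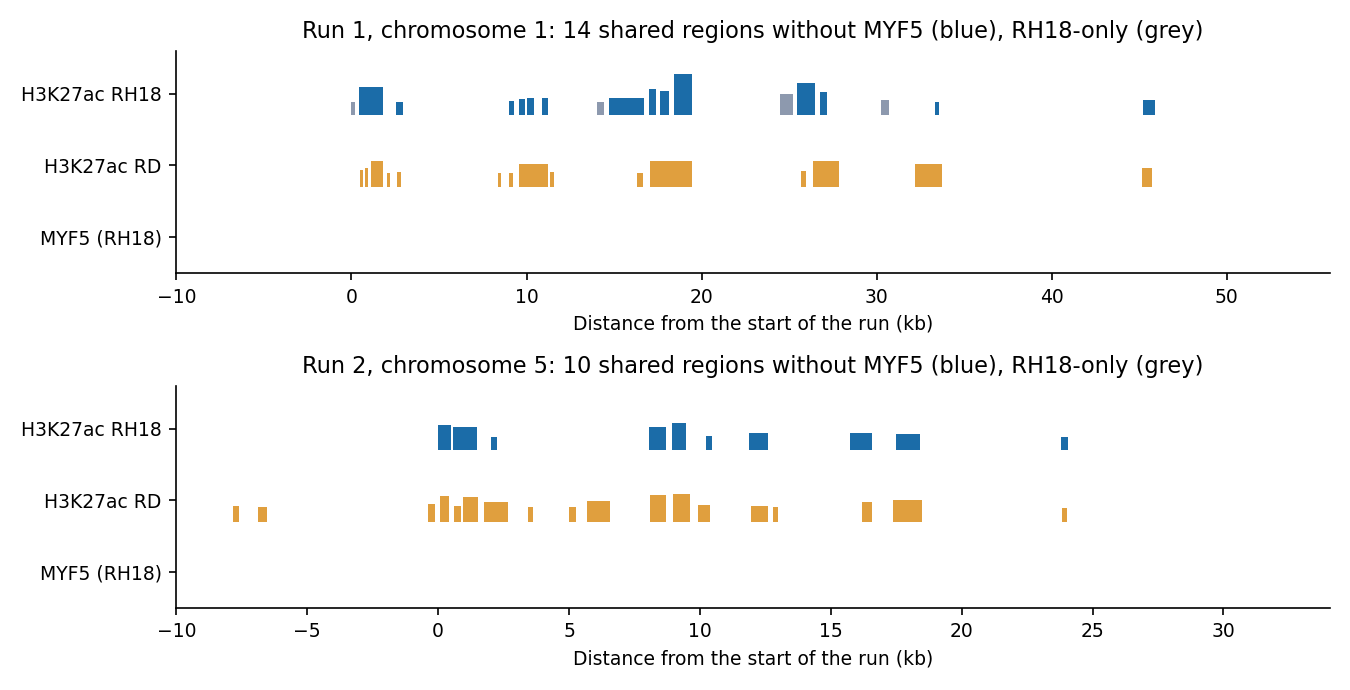
Peaks of the 3 libraries along the 2 runs with most members, by distance in kb from the start of the run; the height of a box grows with its tags. Members are blue, RH18-only regions grey and RD regions orange; the MYF5 row is empty because no MYF5 peak lay in the runs or within 10 kb of them.

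Chromosomes differed in how many of their shared regions lacked MYF5. The share was highest on chromosome X (88.6%, 85.5 to 91.2%, 449 of 507 regions), chromosome 4 (87.9%, 85.0 to 90.5%, 503 of 572) and chromosome 9 (83.9%, 81.4 to 86.2%, 797 of 950). It was lowest on chromosome 20 (52.5%, 48.7 to 56.4%, 352 of 670) and chromosome 7 (59.4%, 56.4 to 62.3%, 658 of 1108). Chromosome 3 followed the highest at 80.5% (77.8 to 82.9%), and its interval overlapped that of chromosome 9. The other 20 chromosomes lay between 52.5% and 80.5%.

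Chromosomes 4, 9 and X, singled out after these values were seen, were also low in RH18 signal of other kinds. Local background under RH18 H3K27ac summits had a median of 1.0 times the lowest of the list on each of them, and 1.06 to 2.56 on the other 20 chromosomes. Shared regions had a median of 69, 67 and 76 RH18 tags on chromosomes 4, 9 and X, below the 79.5 to 129 elsewhere. MYF5 peaks on them had 37, 39 and 38 tags at the median, within the low end of the 37 to 52 elsewhere. In RD the same shared regions had 115, 123 and 80 tags, inside the 73 to 141 of the other chromosomes. The RD background was 1.57, 2.81 and 1.57 times its lowest, inside 1.04 to 3.90. Across the 23 chromosomes the MYF5-free share had a Pearson's r of -0.79 and a Spearman's rho of -0.73 with RH18 background, and -0.84 and -0.78 with RH18 tags of shared regions. With RD background the values were -0.31 and -0.32, and with RD tags -0.23 and -0.10. All chromosomes share the same libraries, and these are descriptions. Number of copies was not measured, and the part of RH18 depth per chromosome in the MYF5-free share was not tested.

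Regions of like height were then compared between chromosomes. Of shared regions on chromosomes 4, 9 and X together, 86.2% (84.6 to 87.7%) lacked MYF5, against 68.3% (67.6 to 68.9%) on the others. Within quintiles of shared regions by RH18 tags, from lowest to highest, the share was 91.3, 89.6, 86.5, 79.3 and 67.6% on these chromosomes. On the others it was 82.8, 79.0, 74.2, 65.3 and 43.1%. These chromosomes were picked for their high share, so the direction is a description and no test. The highest quintile held 145 regions on these chromosomes and 4037 elsewhere. Of RH18-only regions, 96.0% (95.01 to 96.8%) lacked MYF5 on these chromosomes and 89.7% (89.3 to 90.1%) elsewhere. These were not matched by height, with medians of 37 and 42 tags. The same MYF5 list served to pick the chromosomes, so this is no separate support. Neighbouring regions are not independent, so these intervals are too narrow.

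Chromosome 9 itself was uneven. Up to position 40000000, 137 of 193 shared regions lacked MYF5 (71.0%, 64.0 to 77.3%), near the 70.0% of all shared regions. From position 70000001 it was 655 of 752 (87.1%, 84.5 to 89.4%). RH18 values changed along with it: background was 1.35 times the lowest in the first stretch and 1.0 in the second, and shared regions had 97 and 62 tags. RD values went the other way, with 96 and 129.5 tags and a background of 1.82 and 3.12. The bounds were set after the values were seen.

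**Figure D5:**
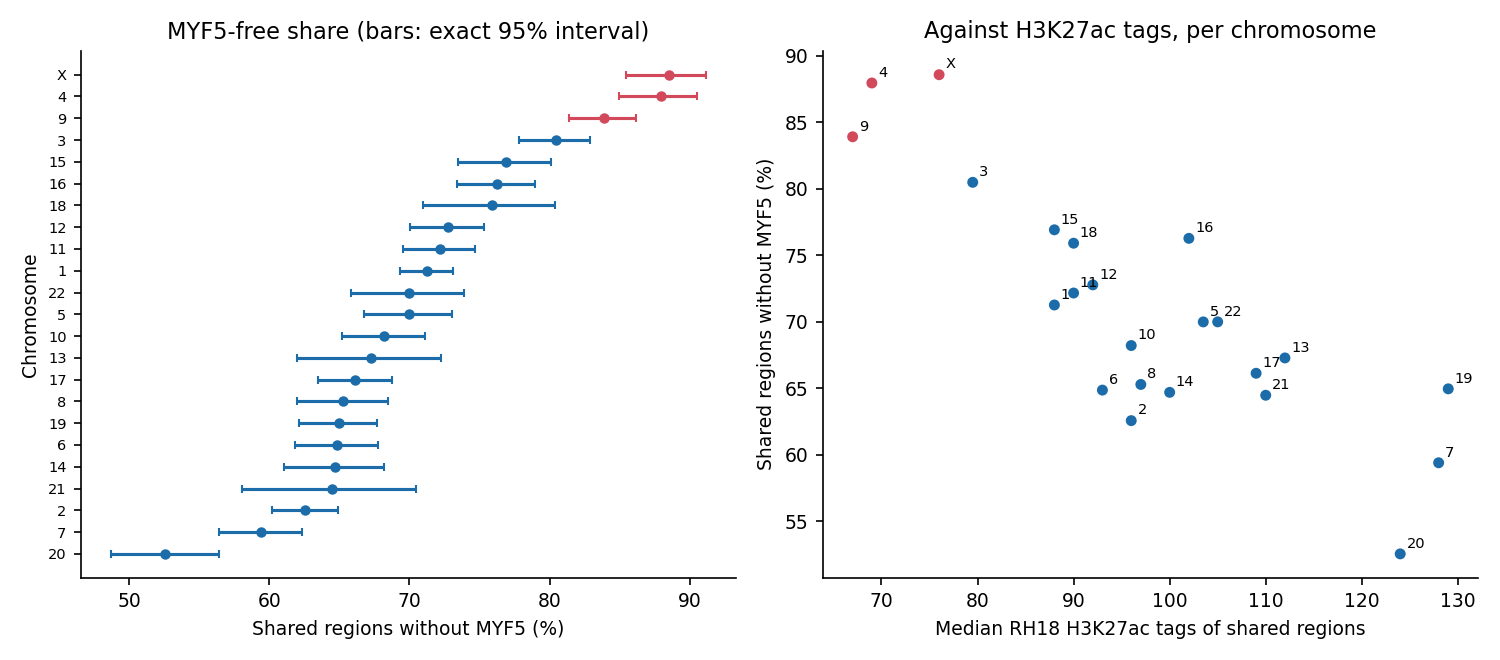
Left, the percentage of shared regions without MYF5 on each chromosome with exact 95% intervals, from 52.5% on chromosome 20 to 88.6% on X; chromosomes 4, 9 and X are red. Right, the same percentage against the median RH18 H3K27ac tags of the shared regions of each chromosome, which fall at the left, with fewest tags, for the red points.

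Members were most crowded in a few megabases, singled out by count. The megabase of chromosome 1 from 27000001 held 46, out of 59 shared regions and beside 12 MYF5 summits. That of chromosome 16 from 85000001 held 45 of 58, beside 16 summits. The megabase of chromosome 9 from 132000001 also held 45 members, and it contained no MYF5 summit among 83 RH18 regions and 63 RD regions. All of its 45 shared regions were members, which follows from the rule where there is no summit and is no separate result. Another on chromosome 9, from 97000001, had 23 members and no MYF5 summit beside 105 RD regions. In all, 316 of the 2043 megabases with a member (15.5%) had no MYF5 summit, against 18.3% of the 2408 with an RH18 region. They held 1038 members (7.09%, 6.68 to 7.52%), against 4.26% (4.004 to 4.53%) of RH18-only regions without MYF5. They held 4.35% of all RH18 regions, a base that includes regions with MYF5 and is lowered by them by construction.

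Members did not gather in stretches of raised background. Local background was at least 4 times the lowest of the RH18 list under 1327 members (9.07%, 8.61 to 9.54%), against 10.1% of all RH18 regions, 8.28% (7.61 to 8.99%) of shared regions with MYF5 and 10.9% (10.5 to 11.3%) of RH18-only regions without MYF5.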

How the data were processed

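Per the submitters' processing notes the tools were BWA 0.7.10 and MACS2 2.1.0 and the build hg19, with no control or threshold stated. The lists deposited by the authors hold 1 row per peak with its position, its fold (the ratio of summit to local background), −log10 p-values and −log10 q-values, and a summit; the deposited score was not used. Peak numbering has gaps (49 for RD, 70 for RH18 H3K27ac, 39 for MYF5). The weakest −log10 p-value differed between the authors' lists: RD reached down to 5.00, RH18 H3K27ac to 7.09 and MYF5 to 9.09. A region without MYF5 is one with no listed summit. Total reads are not given in the sources used here.

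Tags and background per summit were recovered from fold and p-value with the MACS2 formulas. A tag was worth 0.273, 0.832 and 0.658 pileup units in the RD, RH18 H3K27ac and MYF5 lists. All lists gave whole tags (tolerance 0.1) for 100.0% of peaks, and also for 100.0% of those with 1 solution. Chance alone gives 20.0% for 1 solution and a tag unit set beforehand, but the unit was fitted to these peaks. In 55.5%, 13.8% and 31.6% of peaks there were several solutions, settled by the nearest whole tag, which raises the chance value. On peaks simulated with the same formulas, the recovery returned 100.0% of 2997 RD, 3000 RH18 H3K27ac and 3000 MYF5 peaks. That checks the solving and not whether the formulas hold for these lists.

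Members and lists were chosen with earlier results of these data known. Named were the 10 members of highest fold, the 10 widest, the 5 runs with most members, and those at the 500 bp limit; others are said to be chosen after their values were seen. Planned comparisons with gene starts, CpG content, motifs and gene lists need positions or sequence in hg19 and were not run, so no base sequence is printed. Software was scipy 1.17.1, numpy 2.4.6 and pandas 2.3.3 under Python 3.11.15, with matplotlib 3.10.9 for plots.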

Additional observations from a re-analysis of the deposited data

How the results depend on the processing

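The share of RH18 regions that were shared and without MYF5 was 18.3% with reciprocal overlap of 50%, 29.4% with the RH18 summit inside an RD region, 35.4% with MYF5 excluded inside regions only, 30.1%, 26.6% and 23.1% with MYF5 excluded within 1000 bp, 5000 bp and 0.0125 Mb, 24.6% and 16.7% with H3K27ac −log10 q of at least 10 and 20, and 37.5% with MYF5 −log10 q of at least 20. Among shared regions alone the share without MYF5 was 71.5% with reciprocal overlap, 78.7% with MYF5 excluded inside only, 66.8%, 59.1% and 51.4% at the 3 distances, 66.6% and 59.1% at the stricter H3K27ac values, and 83.2% at the stricter MYF5 value. Other distances and thresholds change these shares by construction. Leaving out RH18 regions of raised background, an alternative added after seeing the data, gave 31.9% and 69.8%. The median tags of members ran from 77.0 to 117 and the median width from 534.5 to 795 bp. No paired analysis was possible because each group was 1 library. A further 44 settings for gene starts, CpG content and motifs need gene positions or sequence in hg19 and were not run.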
